A study of Homo sapiens with 4 samples.

Results

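Histone genes were compared between MOLM13 cells, an established human line of acute myeloid leukaemia, with forced expression of BTG2 and the same cells with an empty vector. The members were chosen by gene name from the authors' deposited table of BTG2 over empty vector: names opening with H1-, H2A, H2B, H3C, H3-, H4C, H4- or MACROH2A, 29 of the 11597 genes listed. Names with C and a number, and H1-1 to H1-6, were counted as replication-dependent (21 genes), and the other 8 as variants. The rule reads gene names alone, but it was proposed with results of these data known. The table listed 21 of the 70 replication-dependent and 8 of the 24 variant coding genes that the same rule finds in RefSeq (GRCh38.p14), and the other 65 were not analysed here.

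The BTG2 group held 2 libraries from cells transduced with a BTG2 cDNA, and the control group 2 libraries from cells transduced with the empty vector. Both groups carried the lentiviral backbone with an EF1α promoter, puromycin resistance and ZsGreen, both were spin-infected with 5 µg/mL polybrene, and both were collected 3 days after infection. The labels mention neither selection nor sorting, do not say whether the replicates were separate cultures, and cover a single cell line. Poly(A) RNA was enriched in every library, so the values describe poly(A)-enriched RNA and not all histone RNA.

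Histones wrap DNA into nucleosomes, with H2A, H2B, H3 and H4 in the core and H1 on the linker. Replication-dependent histone genes lie in clusters, lack introns in their main form, and are transcribed in S phase, when new DNA has to be packaged. Their messages usually end in a conserved stem-loop in place of a poly(A) tail. SLBP binds that stem-loop, and the U7 particle guides the cut that makes the end. Variant histones are made through the cell cycle from messages that carry a poly(A) tail. BTG2 is an antiproliferative adaptor that brings the CCR4-NOT deadenylase, which shortens poly(A) tails, to messages.

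The stem-loop decides how these messages end, so its letters are shown first. The histone 3′ stem-loop was found past the stop codon in the annotated transcripts of 13 members (GENCODE release 29, hg38), 12 of them replication-dependent and the other H2AX. For the remaining 9 replication-dependent members the annotated coding transcripts hold no complete stem-loop, and in 8 of these they end at the stop codon. Capitals mark the 16 bases of the stem-loop, written 5′ to 3′ on the strand of the gene with 5 flanking bases on each side.

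H4C9 (chr6:27139649-27139674, plus strand): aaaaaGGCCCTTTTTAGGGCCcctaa
H4C14 (chr1:149833027-149833052, plus strand): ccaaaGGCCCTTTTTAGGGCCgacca
H4C15 (chr1:149860764-149860789, minus strand): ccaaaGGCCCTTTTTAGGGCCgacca
H4C11 (chr6:27824454-27824479, plus strand): taaaaGGCCCTTTTCAGGGCCaccct
H4C8 (chr6:26285126-26285151, minus strand): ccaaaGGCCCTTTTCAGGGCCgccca
H2BC5 (chr6:26158582-26158607, plus strand): ccaaaGGCTCTTTTAAGAGCCacgca
H2AC6 (chr6:26124664-26124689, plus strand): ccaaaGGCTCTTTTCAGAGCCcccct
H2AX (chr11:119094893-119094918, minus strand): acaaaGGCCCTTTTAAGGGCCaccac

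Among the 13 members 5 different stem-loops occurred. The H4 form of H4C9 recurred in H4C14 and H4C15, and that of H4C11 in H4C8. The form shown for H2AC6 was shared by 5 members (H2AC6, H2AC18, H2AC19, H2AC25 and H2BC21) and that of H2BC5 by H2BC4.

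BTG2 itself stood at a log2 fold change of 5.01 (SE 0.09) by the authors' deposited table, a fold of 32.3. In bulk RNA, fewer cells of a type and less RNA per cell cannot be told apart. All 8 myeloid genes were listed, with mean normalized counts from 71.6 for CSF1R to 6277 for LYZ in the authors' deposited table. Of these 8, 1 was called higher (FLT3) and 3 lower (MPO, LYZ and CEBPA). The share called was 8.11% over all listed genes and 13.6% over those with a mean count of at least the median. Of 15 genes of other lineages only KRT8 and PECAM1 were listed, with means of 58.5 and 65.7 in the authors' deposited table. No values of single libraries were used, so errors are the authors' standard errors (SE) of the log2 fold change, and intervals are 95% intervals from that SE. A gene is called where the authors' adjusted p is under 0.05.

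The called replication-dependent genes, H2AC12, H4C9 and H3C12, were all higher with BTG2 and all of low abundance, and H2AZ1, the single variant called, was lower with BTG2. Of the 21 replication-dependent members 3 rose and 0 fell, or 14.3% called, and of the 8 variants 0 rose and 1 fell. Among all listed genes 8.11% were called, 3.64% higher and 4.47% lower. The median log2 fold change was 0.32 over the replication-dependent members and 0.06 over the variants, against 0.00 over all listed genes. Empty-vector levels implied by mean and fold change were 1.62 to 3.21 for the 3 that rose, below the lowest listed mean of 5.06. Of the 21 replication-dependent members, 7 lay below it with empty vector and 0 with BTG2. Such genes may be listed only through the libraries in which they are high, so the 14.3% and the median of 0.32 carry this limit. The members and classes were set with results of these data known, so these shares and medians describe the lists and are not tested.

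**Figure D1:**
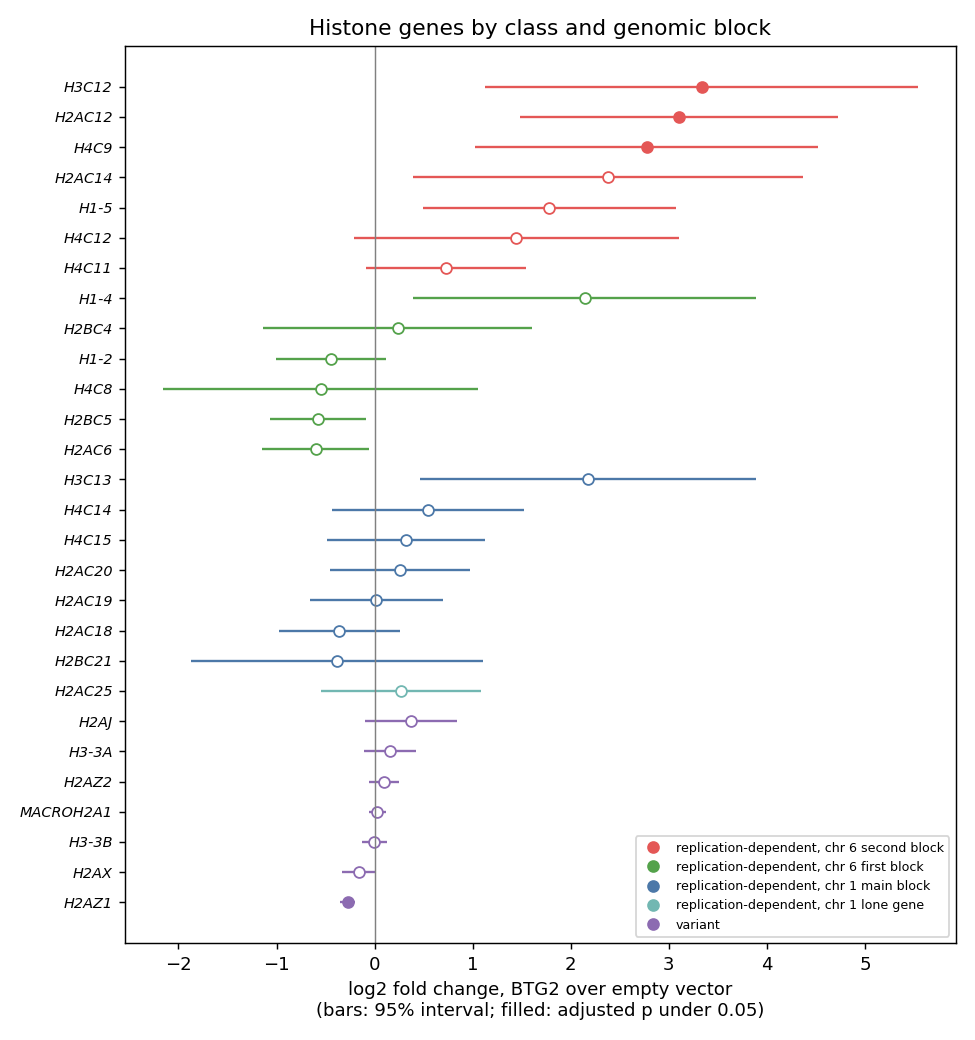
Log2 fold change of BTG2 over empty vector for histone genes, grouped by class and by genomic block, with 95% intervals and without a variant not reported here. Filled points have an adjusted p under 0.05: H3C12 (3.33), H2AC12 (3.10) and H4C9 (2.77), all in the second chromosome 6 block, and the variant H2AZ1 (-0.28).

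H2AC12 (ENSG00000274997.2, chromosome 6, 27147106 to 27147562), a core histone H2A gene, had a mean normalized count of 15.4 and a log2 fold change of 3.10 (SE 0.83, adjusted p = 0.00400) per the authors' deposited table. If the mean weighs both groups equally, was taken over these 4 libraries and the fold is not shrunken, that fold implies 27.6 normalized counts per BTG2 library and 3.21 per empty-vector library. H4C9 (ENSG00000276180.2, chromosome 6, 27139282 to 27139678), a histone H4 gene, stood at 2.77 (SE 0.89, adjusted p = 0.0279) as the authors' deposited table gives it, which implies 18.3 counts with BTG2 and 2.68 with empty vector. Its stem-loop is the same as that of H4C14 and H4C15.

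H3C12 (ENSG00000197153.5, chromosome 6, 27890315 to 27890826), a histone H3 gene, stood at 3.33 (SE 1.12, adjusted p = 0.0401) by the authors' deposited table, with an implied 16.3 counts with BTG2 and 1.62 with empty vector. The empty-vector levels of these genes thus amount to a few normalized counts, and the 95% intervals of the log2 fold change are wide: 1.48 to 4.72 for H2AC12, 1.03 to 4.52 for H4C9 and 1.13 to 5.54 for H3C12. Just outside the threshold was the linker histone gene H1-5 (log2 fold change 1.78, adjusted p = 0.0734) per the authors' deposited table.

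**Figure D2:**
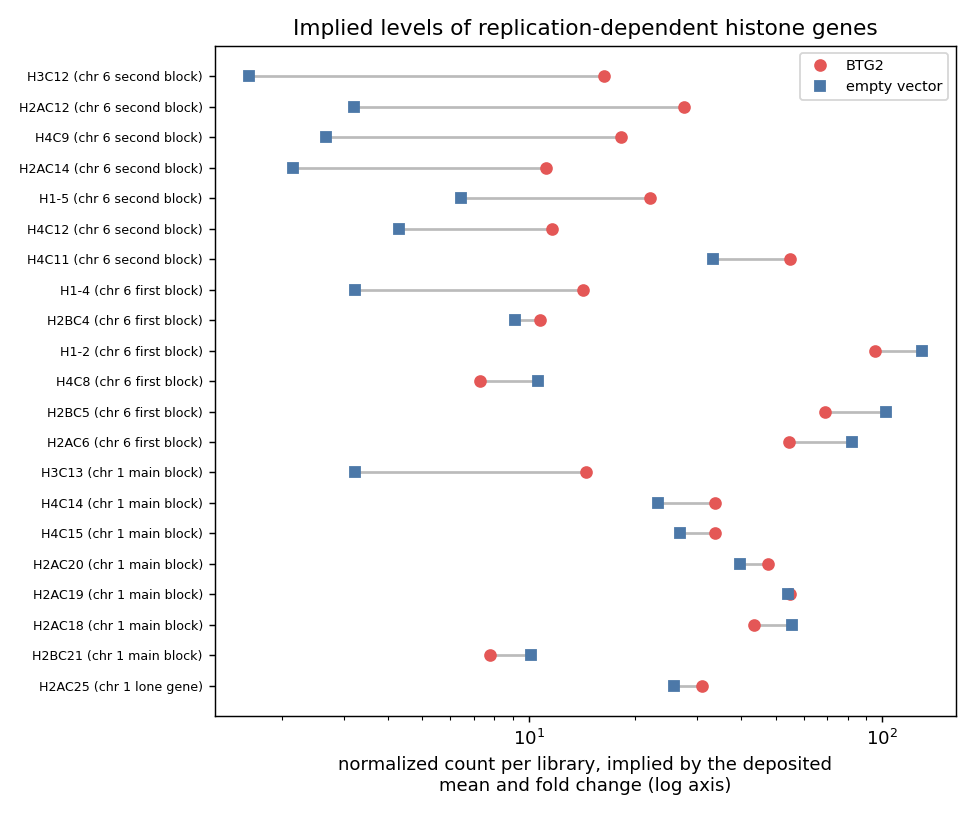
Normalized counts per library (log axis) implied for BTG2 (circles) and empty vector (squares) by the deposited mean and fold change of the 21 replication-dependent genes. The 3 called genes lie at 16.3 to 27.6 with BTG2 and 1.62 to 3.21 with empty vector, whereas H1-2, H2BC5 and H2AC6 lie lower with BTG2.

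The replication-dependent members lie in genomic blocks, which are described in turn. This grouping by position was made after the values were seen, and no test was run on it. On chromosome 6 a first block of 6 members spans 26055740 to 26285534 and a second block of 7 spans 27139282 to 27890826 (RefSeq, GRCh38.p14), 854 kb apart. All 7 members of the second block had positive log2 fold changes, from 0.73 to 3.33 with a median of 2.38, and all 3 called genes were among them. That is 42.9% called, beside 8.11% of all listed genes. RefSeq places 21 replication-dependent coding genes in this part of chromosome 6, of which 7 were listed, against 6 of 34 for the first block. The implied empty-vector levels of H4C9, H2AC12, H2AC14, H4C12 and H3C12 ran from 1.62 to 4.29, below the lowest listed mean of 5.06. These genes may be listed only through the libraries in which they are high, so the shared sign, the share called and the median are a description.

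Beside H2AC12, H4C9 and H3C12, the second block held 4 members that did not pass. H2AC14, another H2A gene, stood at 2.38 (SE 1.02), H1-5 at 1.78 (SE 0.66), and the H4 genes H4C12 at 1.44 (SE 0.85) and H4C11 at 0.73 (SE 0.42), all from the authors' deposited table. H4C11 was the most abundant of the block, with a mean of 44.0 in the authors' deposited table, against 6.67 to 15.4 for the other 6. Summed over the block, the implied levels came to 162 normalized counts with BTG2 and 53.5 with empty vector, a ratio of 3.03. This ratio carries the same limit on listing and is a description.

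In the first block 4 of 6 members had negative log2 fold changes, the median was -0.50, and 0 were called. With 8.11% of all listed genes called, 0 of 6 is near that share. The linker histone gene H1-2 stood at -0.44 (SE 0.29), the H2A gene H2AC6 at -0.60 (SE 0.28) and the H2B gene H2BC5 at -0.58 (SE 0.25) by the authors' deposited table. These were the 3 most abundant replication-dependent genes, with means of 112, 68.4 and 85.9 in the authors' deposited table. The intervals of H2AC6 (-1.15 to -0.05) and H2BC5 (-1.06 to -0.09) lay below 0, but their adjusted p-values of 0.210 and 0.161 missed the threshold in the authors' deposited table.

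The other 3 members of the first block had means under 10. H1-4, a linker histone gene, stood at 2.14 (SE 0.89, adjusted p = 0.136), H2BC4 at 0.23 (SE 0.70) and H4C8 at -0.55 (SE 0.82) per the authors' deposited table. The implied empty-vector level of H1-4, 3.22, lies below the lowest listed mean of 5.06, so its fold carries the same limit on listing. H4C8 and H4C11 carry the same stem-loop and had log2 fold changes of opposite sign, with intervals of -2.16 to 1.06 for H4C8 and -0.09 to 1.54 for H4C11 that overlap. Summed over this block, the implied levels came to 251 normalized counts with BTG2 and 338 with empty vector, a ratio of 0.743.

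On chromosome 1 the main block, from 149813225 to 149887411, held 7 members and 0 called genes, with a median of 0.26. With 8.11% of all listed genes called, 0 of 7 is near that share. H3C13, a histone H3 gene at a mean of 8.89, stood at 2.17 (SE 0.87, adjusted p = 0.115) as the authors' deposited table gives it, and the other 6 lay between -0.38 for H2BC21 and 0.54 for H4C14. The implied empty-vector level of H3C13, 3.23, lies below the lowest listed mean of 5.06, so its fold carries the same limit on listing. The paired genes H2AC18 (-0.36, SE 0.31) and H2AC19 (0.02, SE 0.35) have identical coding sequences, as have H4C14 (0.54, SE 0.50) and H4C15 (0.32, SE 0.41), with values from the authors' deposited table. H2AC20 in this block (0.26, SE 0.37) and H2AC25 (0.27, SE 0.42) completed the class in the authors' deposited table. H2AC25 lies farther along chromosome 1, where RefSeq places 2 replication-dependent coding genes, of which 1 was listed. The figures label it the lone gene for that reason.

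The direction also went with abundance. Of the 11 replication-dependent members with a mean count under 20, 8 (72.7%) had a log2 fold change above 1 and 0 lay below -1, whereas among all 1077 listed genes under 20 the shares were 10.4% above 1 and 9.19% below -1. Of the 11, 3 (27.3%) rose, against 1.67% higher among the 1077. Of the 10 members with a mean of 20 or more 0 were called, and their median log2 fold change was 0.14. Among all 10520 listed genes with such a mean 8.56% were called, so 0 of 10 is near that share. The limit of 20 was set after the values were seen.

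Summed implied levels of the 11 low members came to 162 normalized counts with BTG2 and 56.7 with empty vector, and those of the 10 others to 517 with BTG2 and 573 with empty vector. Over all 21 the sums were 679 with BTG2 and 630 with empty vector, a ratio of 1.08. Low abundance also bears on which genes were listed. The lowest mean in the authors' deposited table was 5.06, and the implied level was below it with BTG2 in 0 and with empty vector in 7 of the 21 members, against 51 genes with BTG2 and 58 with empty vector among all listed genes. Such genes may be listed only through the libraries in which they are high, so the share that is higher among low members is a description and not support for a rise of the class.

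**Figure D3:**
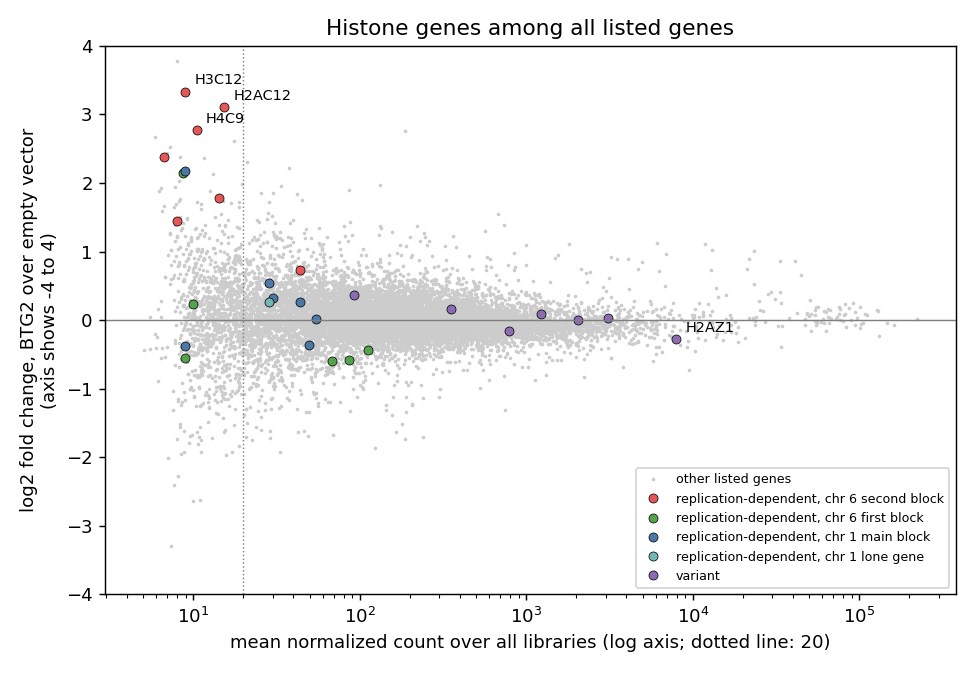
Log2 fold change of BTG2 over empty vector against the mean normalized count (log axis) for all listed genes (grey) and the histone genes (coloured by class and block, without a variant not reported here); 43 other genes lie beyond the axis limits of -4 and 4. The members above 1 all lie left of the dotted line at a mean of 20, and the variants lie close to 0.

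Without adjustment, 9 of the 21 replication-dependent members (42.9%) had a p under 0.05, 7 higher and 2 lower, beside 17.6% of all listed genes, 918 higher and 1118 lower. Of those 7, 6 have an implied empty-vector level below the lowest listed mean, so this share carries the same limit on listing and is a description. Each core family held members of both signs except H3, whose 2 members, H3C12 and H3C13, were both positive. By adjusted p, for H2A 1 of 7 rose, for H4 1 of 6 and for H3 1 of 2, while 0 of 3 H1 and 0 of 3 H2B genes were called. Over all listed genes 8.11% were called, and with so few members per family these counts are a description and not a difference between families.

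The counting of near-identical copies limits how far single genes can be told apart. Coding sequences of the listed replication-dependent members shared 83.0% to 100% of bases within H4 and 83.8% to 100% within H2A. Identical copies were found for H2AC18 with H2AC19, H4C14 with H4C15 and H4C11 with H4C12. The closest copy of H2AC12 was H2AC14, at 90.7%, that of H4C9 was H4C11, at 90.1%, and that of H3C12 was the unlisted H3C11, at 85.4%. H3C12 also overlaps an unlisted H2A gene (HIST1H2AM) on the same strand in GENCODE release 29. H4C14 and H4C15 each overlap an unlisted H3 gene on the opposite strand. No source used here says how reads of such copies or strands were assigned, and the part of this in the values was not tested.

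Annotated transcript ends varied within the class. Coding transcripts ran at least 100 bases past the stem-loop in 8 members, namely H4C14, H4C15, H2BC21, H2AC25, H2BC4, H2AC6, H4C8 and H4C9. Their median log2 fold change was 0.25 with 1 gene called (12.5%), H4C9. Among the other 13 the median was 1.44 with 2 called (15.4%), H2AC12 and H3C12, beside 8.11% of all listed genes. Most members whose implied empty-vector level lies below the lowest listed mean are among the other 13. The difference in medians thus carries the same limit on listing and is a description. The annotation of the other 13 often stops at the stop codon, so it does not show whether a longer form exists.

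The variants were far more abundant. They made up 0.154% of the summed mean counts of all genes, against 0.00634% for the 21 replication-dependent members. Per kb of the longest annotated coding transcript, mean normalized counts came to 8151 for H2AZ1 and 143 for H2AJ among the variants and ran from 4.08 for H2BC21 to 175 for H1-2 among the replication-dependent members. Library preparation by poly(A) enrichment and the level of each RNA cannot be told apart in this contrast.

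H2AZ1 (ENSG00000164032.12, chromosome 4, 99948088 to 99950275), which codes for H2A.Z, the variant placed at promoters by exchange complexes, fell to an implied 7221 normalized counts with BTG2, against 8739 with empty vector. Its log2 fold change was -0.28 (SE 0.04, adjusted p = 1.23e-09) by the authors' deposited table, with an interval of -0.35 to -0.20. H2AZ2, which codes for a near-identical H2A.Z protein, stood at 0.10 (SE 0.08, adjusted p = 0.617) per the authors' deposited table, with an interval of -0.06 to 0.25. The intervals do not overlap, but the difference itself was not tested. Coding sequences of the pair share 80.4% of bases.

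H2AJ, an H2A variant, stood at 0.37 (SE 0.24, adjusted p = 0.462) at a mean of 92.3 in the authors' deposited table. H2AX, the variant phosphorylated at DNA breaks, stood at -0.16 (SE 0.09, adjusted p = 0.349) by the authors' deposited table. Its message was the only variant one with a stem-loop in its annotation.

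H3.3, the replacement form of H3, is encoded by H3-3A and H3-3B. H3-3A stood at 0.16 (SE 0.13) and H3-3B at 0.00 (SE 0.07) per the authors' deposited table, with intervals of -0.11 to 0.42 and -0.13 to 0.13. MACROH2A1, an H2A variant with a large additional domain, stood at 0.03 (SE 0.05) as the authors' deposited table gives it, with an interval of -0.06 to 0.12. For H3-3B and MACROH2A1 the intervals thus lie within 0.13 of 0 on the log2 scale. They measure only the spread between these libraries, which may be technical, and setting the median abundant gene to 0 would move both upward.

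Promoter letters were compared for the 26 members in the RefSeq promoter table (GRCh38.p14, 250 bases before to 50 after the first listed start), 19 replication-dependent and 7 variant. The TATA motif TATAAA, on either strand, was in 63.2% of the replication-dependent and 42.9% of the variant windows, against 12.0% of all 27305 windows. The CCAAT motif, on either strand, was in 73.7% of the replication-dependent and 85.7% of the variant windows, against 35.7% of all. The octamer ATTTGCAT, known from H2B promoters and searched on both strands, was in 26.3% of the replication-dependent and 14.3% of the variant windows, against 1.80% of all. No motif contains another, though matches can share bases at their ends. The windows of the divergent pairs H2AC6 with H2BC4 and H2AC20 with H2BC21 overlap and share matches, so the 5 replication-dependent windows with the octamer hold 3 distinct positions. A match is a description of letters and not of binding. H2AC12 and H3C12 were not in the table, and the H4C9 window held CCAAT but neither of the other motifs.

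Genes that make, process and place histones were taken from lists and stood mostly close to 0. Of 23 listed genes of stem-loop processing 1 rose and 2 fell, with a median log2 fold change of 0.02. The share called, 13.0%, was near the 13.6% among all listed genes with a mean count of at least the median, beside 8.11% of all. The cap-binding subunit NCBP2 rose by 0.34 (SE 0.10), and the Sm ring proteins SNRPB (-0.26, SE 0.04) and SNRPG (-0.17, SE 0.05), shared by the U7 and the splicing particles, fell in the authors' deposited table. SLBP stood at 0.14 (SE 0.11, adjusted p = 0.626) and the U7-specific proteins LSM10 at 0.07 (SE 0.19) and LSM11 at 0.24 (SE 0.32) by the authors' deposited table. TUT7, which adds uridines to histone messages for their decay, stood at 0.73 (SE 0.26, adjusted p = 0.0642) per the authors' deposited table.

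Of 16 genes of cleavage and polyadenylation 1 rose and 0 fell, or 6.25% called beside 8.11% of all listed genes, with a median of 0.04. The one called was the termination factor PCF11, at 0.59 (SE 0.17) as the authors' deposited table gives it. NUDT21 (-0.18), the poly(A) polymerase PAPOLA (-0.12) and RBBP6 (0.27) followed it by test statistic and did not pass in the authors' deposited table.

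Of 12 listed genes of histone gene transcription 0 rose and 1 fell, or 8.33% called beside 8.11% of all listed genes, with a median of 0.08. Cyclin E2, CCNE2, which activates CDK2 at the entry to S phase, stood at -0.52 (SE 0.15, adjusted p = 0.0107) by the authors' deposited table. CDK2 (-0.23), the H4 promoter factor HINFP (0.48) and the acetyltransferase EP300 (0.22) did not pass in the authors' deposited table. NPAT, the cyclin E-CDK2 substrate that switches on histone clusters, stood at 0.00 (SE 0.30) per the authors' deposited table.

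Of 24 S-phase genes 2 rose and 7 fell, or 37.5% called, with a median of -0.14. Over all listed genes 8.11% were called, and 13.6% of those with a mean count of at least the median. UHRF1 (-0.51, SE 0.09), MCM2 (-0.34, SE 0.07) and MCM3 (-0.23, SE 0.06) fell and MCM7 (0.28, SE 0.07) rose in the authors' deposited table. The part of S phase in the histone values was not tested.

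Of 30 listed histone chaperones 1 rose and 4 fell, with a median of -0.06. The share called, 16.7%, was near the 13.6% among all listed genes with a mean count of at least the median, beside 8.11% of all. NAP1L1, an H2A-H2B chaperone, rose by 0.46 (SE 0.04) as the authors' deposited table gives it. The H3-H4 chaperones ASF1A (-0.54, SE 0.07) and ASF1B (-0.33, SE 0.07), the H3-H4-binding RBBP7 (-0.26, SE 0.07) and SSRP1 (-0.16, SE 0.06), a subunit of FACT, fell in the authors' deposited table.

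**Figure D4:**
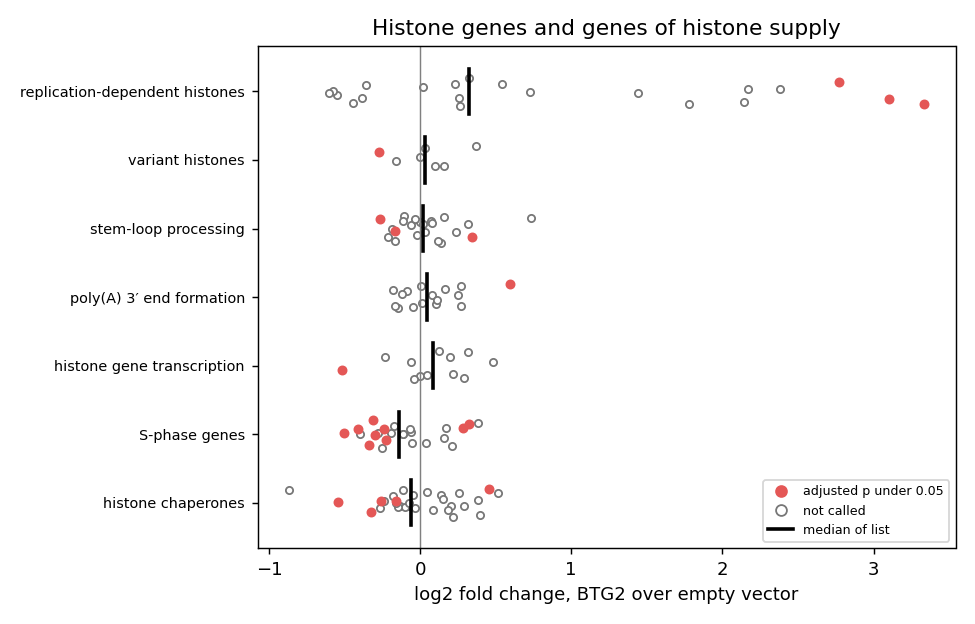
Log2 fold change of BTG2 over empty vector for the histone genes and for 5 lists of related genes (points, filled where the adjusted p is under 0.05; bars mark the median of the points drawn, with a variant not reported here left out). Medians of the related lists lie between -0.14 and 0.08, against 0.32 for the replication-dependent histones. The lists differ in abundance, with median mean counts of 146 to 743 for the related lists and 15.4 for the replication-dependent histones. The median of the replication-dependent histones with a mean of 20 or more is 0.14.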

How the data were processed

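Per the submitters' processing notes, minimap2 and hg38 were used, with no version or role. The deposited file is the authors' own comparison, with 11597 genes. Its mean column is a signal headed baseMean (per the file headers), read here as the authors' mean normalized count over libraries. The header itself names neither the normalization nor the libraries. Fold changes with standard errors are on the log2 scale, deposited as BTG2 over empty vector. The deposited score is the fold change over its standard error. The deposited p-value is its two-sided normal tail, and the adjusted p-value is Benjamini-Hochberg over all listed genes within 1.48e-06. Which program, normalization, filter and annotation made it is not given in the sources used. The labels describe paired 150 bp reads and the series title long reads. With no counts per library used, depth is unknown, and the planned rule for such a table applied: the authors' adjusted p under 0.05, across all genes, with no test added. P-values measure only the spread between these libraries, which may be technical.

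Members and gene lists were chosen with earlier results of these data known. Named genes were all called members, members whose mean count reached the median of all genes (151), those nearest the threshold, the extremes of each class, and up to 4 genes of each other list by test statistic; SSRP1, SLBP, LSM10, LSM11, NPAT and other members were added after their values were seen. A variant gene is not reported by name here. All 29 members were found in GENCODE release 29. Coding sequences were aligned globally with Biopython 1.88 among 92 histone genes. Calls against 0 and against a log2 change of 0.5 were checked on simulated fold changes drawn with the deposited standard errors. Such draws take those errors as right, so they check the calling steps and not the errors themselves. Python 3.11.15, numpy 2.4.6, pandas 2.3.3 and scipy 1.17.1 were used.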

Additional observations from a re-analysis of the deposited data

How the results depend on the processing

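Only recentring could change a direction, since the other alternatives reuse the deposited fold changes. Setting the median abundant gene (-0.03) to 0 raised every log2 fold change by that amount, and of the members H3-3B alone changed sign, from 0.00 (just below 0) to 0.025. Calls depended on the threshold. Of the replication-dependent genes 1 (H2AC12) remained called at an adjusted p under 0.01, 0 when tested for exceeding a log2 change of 0.5 in size, and 0 among abundant genes (mean count not below the median), where no member of this class lies. By stem-loop in annotated transcripts in place of names, 1 gene was called, H4C9, since the transcripts of H2AC12 and H3C12 end at the stop codon. In alternatives chosen after seeing the data, 0 were called among members with a mean of 20 or more, 0 without the second chromosome 6 block, and 3 among members under 20. Variants called came to 2 at an adjusted p under 0.1, 2 among abundant genes and 2 after recentring, and to 0 with a minimum absolute change of 1 and 0 against 0.5. All histone genes called came to 2 at 0.01, 2 among abundant genes and 0 against 0.5. Of the related lists, stem-loop processing had 5 called at 0.1, histone transcription 0 at 0.01, S-phase genes 5 at 0.01 and chaperones 3 at 0.01. With a minimum change of 1, and against 0.5, each of the 5 related lists had 0. Scaling by DESeq2 and leaving out single libraries were not run, since values per library were not used here. No paired analysis was possible because the deposited table compares the groups as wholes, and values of single libraries, which the labels number 1 and 2 in each group, were not used. Precision followed abundance, with a median standard error of 0.66 for replication-dependent and 0.08 for variant genes.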

Other observations

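Other genes between the first and last chromosome 6 members were close to 0. The 11 listed ones, among them the butyrophilin genes BTN3A2 and BTN2A1, the nucleosome-binding HMGN4 and the zinc finger gene ZNF184, held 0 called genes by the authors' test. Their log2 fold changes ran from -0.40 to 0.45 with a median of 0.06, at means of 24.3 to 749. Over all listed genes 8.11% were called, so 0 of 11 is near that share. Only ZNF391 (0.06, SE 0.34) and ZNF184 (-0.17, SE 0.21) lie within the second block, and the others lie in the gap between the blocks. CENPA, the centromeric H3 variant, lies outside the naming rule and was looked at after the other values were seen. It stood at -0.39 (SE 0.22, adjusted p = 0.357) at a mean of 143 in the authors' deposited table.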
